A study of Mus musculus with 3 samples.

Results

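The T cells described here are marrow cells that carried CD3 and T cell receptor mRNA although an antibody to CD3 had been used to remove them. They were taken from droplet single-cell RNA sequencing of lineage-depleted mouse bone marrow. A barcode was kept with at least 1000 UMIs (distinct mRNA tags), at least 500 genes and at most 10% mitochondrial UMIs. It was called a T cell when Cd3e, Cd3d and Cd3g together had at least 2 UMIs and the receptor constant genes Trbc1, Trbc2 and Trac at least 1. It also had to have no Cd79a UMI, less than 0.2% of its UMIs from the basophil proteases Mcpt8 and Prss34 and less than 0.5% from the neutrophil granule genes Mpo, Elane and Prtn3. The members were thus chosen by measured UMIs of these genes. The rule found 1222 T cells among 19762 kept barcodes, with 703 in the control, 74 in the Lztr1 knockout, with 445 in Rit1-M90I.

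The control carried the Rit1M90I/+ allele without the Cre transgene, although its title has wild type. The Lztr1 knockout was Lztr1fl/fl;Mx1Cre+, and Rit1-M90I was Rit1M90I/+;Mx1Cre+. Every group was injected at 8 weeks of age with 3 doses of pIpC (12 mg/kg), a double-stranded RNA analogue that induces interferon and through it Mx1-Cre, and marrow was taken 4 weeks after the injections. Mx1-Cre acts in many interferon-responsive cell types, so the alleles were not altered in T cells alone. There was 1 library per genotype, and the sources used here do not say how many mice each library held. Both mutant libraries carried Mx1-Cre and the control did not, so Cre and the allele cannot be told apart. No value has a replicate and no test was possible. Parentheses give 95% intervals for counting error only, and a difference is one between libraries.

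A T cell recognises antigen through a receptor of alpha and beta chains, or of gamma and delta chains, held at the membrane by the CD3 proteins. CD4 and CD8 are the coreceptors of the helper and the cytotoxic lineage, and memory and innate-like T cells can also carry receptors first known from natural killer (NK) cells. Bone marrow is a known site of memory CD8 T cells. RIT1 is a RAS-like GTPase and LZTR1 the adaptor that marks it for breakdown, and RAS proteins relay the T cell receptor signal.

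The T cells held less RNA than the marrow around them. The median T cell of the control had 2661 UMIs, that of the Lztr1 knockout 3680.5 and that of Rit1-M90I 3164, against 7021, 10140.5 and 6885 over all kept barcodes. Some T cells were far larger. T cells over 8000 UMIs were 5.26% of the T cells in the control but gave 22.2% of their UMIs, and the shares were 12.2% and 37.5% in the Lztr1 knockout and 4.49% and 19.9% in Rit1-M90I. Over the 3 libraries these large cells carried Ccl5 at 1361 CPM (a gene's share of the UMIs of the summed cells, on the usual CPM scale) against 7890 in the other T cells, and Cd3e at 92.2 against 460. The erythroid carbonic anhydrase Car1 was at 1336 CPM against 78.6, and the histone gene Hist1h2ap at 2666 against 209. The doublet caller scrublet marked 28 of 37 large T cells in the control, 4 of 9 in the Lztr1 knockout, with 11 of 20 in Rit1-M90I. All T cells stay in the values below, and values without the large cells are given beside some of those they move. A value given alone can move without them as well.

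Markers of other lineages ranged from near 0 to high in the T cells. Among 9 B cell markers, Cd79a (fixed by the rule), Ms4a1 and Pax5 were at 0 in the control, and the summed level was 16.7 to 38.7 CPM over the libraries. Of 8 eosinophil markers at least 6 were at 0 in each library. The 10 erythroid markers summed to 693 CPM in the control, 1105 in the Lztr1 knockout, with 896 in Rit1-M90I, and to 201, 231 and 216 CPM without the large T cells. The 9 plasma cell markers, which include the abundant Igkc, summed to 680, 676 and 1799 CPM. The 9 NK cell markers were high, at 2646, 2323 and 2410 CPM. The 10 innate lymphoid markers summed to 992, 762.4 and 840 CPM, above the 228, 248 and 229 of the other kept cells. The 9 dendritic cell markers summed to 592, 671 and 670 CPM, or 337, 329 and 510 without the large T cells, the 9 monocyte markers to 425, 518 and 483 and the 10 neutrophil progenitor markers to 367, 732 and 724, each below the other kept cells. Ngp, Camp and Ltf, late neutrophil granule genes, were at 0. The part of these cells in the results was not tested. No T cell barcode was shared by any pair of libraries.

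T cells took a smaller share of both mutant libraries than of the control. They were 9.34% (8.70 to 10.0) of kept barcodes in the control, 3.06% (2.41 to 3.82) in the Lztr1 knockout, with 4.53% (4.13 to 4.96) in Rit1-M90I. The share ratio to the control was 0.327 (0.258 to 0.414) for the Lztr1 knockout and 0.485 (0.432 to 0.544) for Rit1-M90I. The order control, Rit1-M90I, Lztr1 knockout held under each of the 11 other cell filters tried. The ratio ranged from 0.264 to 0.347 for the Lztr1 knockout and from 0.473 to 0.587 for Rit1-M90I. Because anti-CD3 was part of the sort, the shares can be set by how many stained cells each sort let through as well as by the marrow, and which of these moved was not tested.

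**Figure D1:**
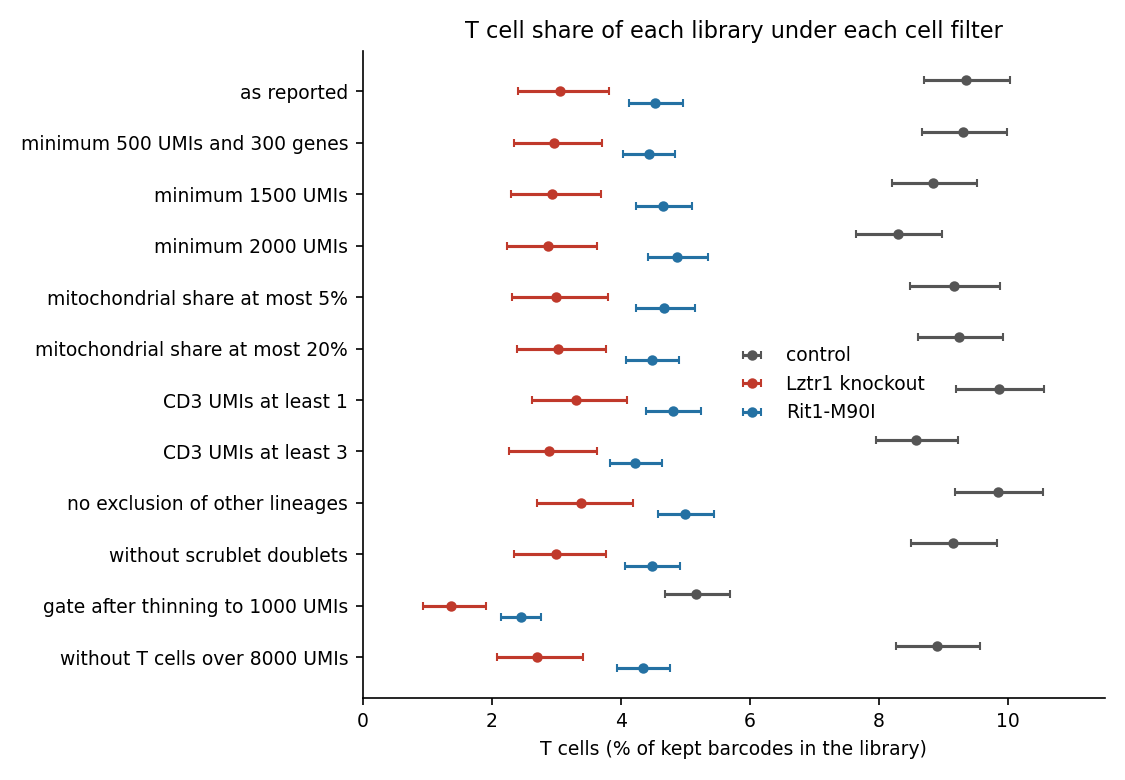
Share of kept barcodes that are T cells (x axis, %) under the reported filter and 11 others (y axis), with exact Clopper-Pearson 95% intervals for counting error. The control (grey) is the highest of the 3 libraries in every row, at 9.34% as reported, and the Lztr1 knockout (red) the lowest, at 3.06%.

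The edge of the rule ran through few cells. Cells with exactly 2 CD3 UMIs and a receptor constant UMI, just inside, numbered 93, and 1129 T cells had 3 or more. Just outside were 72 cells with 1 CD3 UMI and a receptor constant UMI, and 38 cells with 2 or more CD3 UMIs but no Trac, Trbc1 or Trbc2. Ccl5, a chemokine of memory T and NK cells that the rule did not use, was at 5637 CPM just inside, at 4451 in the 72 cells and at 3952 in the 38 cells. Trdc, the constant gene of the delta chain, was at 155 CPM in the 38 cells against 19.2 in the 93 cells. The rule asks for an alpha or beta constant UMI, so gamma delta T cells can have been left out.

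The receptor and CD3 genes chose the cells and are given as a description. Cd3d was at 679 CPM in the control, 540 in the Lztr1 knockout, with 613 in Rit1-M90I, Cd3g at 672, 526 and 602, and Cd3e at 387, 320 and 375. Trbc2 was at 1042, 629 and 902 CPM, Trbc1 at 537, 492 and 647, and Trac at 331, 239 and 271. Without the large T cells Cd3d was at 825, 765 and 737 CPM and Trbc2 at 1235, 881 and 1071. Trbc1 and Trbc2 are near copies, so reads can move between them. Cd247, the zeta chain of the complex and not part of the rule, was at 79.5 CPM (68.3 to 91.9), 86.3 (58.6 to 122) and 86.5 (73.2 to 102), a level whose intervals overlap in all 3 libraries.

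Trdc mRNA took a higher share of the T cell UMIs in both mutant libraries. It was at 44.5 CPM (36.3 to 54.1) in the control, 122 (89.0 to 164) in the Lztr1 knockout, with 99.8 (85.5 to 116) in Rit1-M90I, and the control interval lay below both mutant intervals. The ratio was 2.75 (1.88 to 3.95) for the Lztr1 knockout and 2.24 (1.74 to 2.89) for Rit1-M90I. Trdc UMIs were spread over 38 of 703, 14 of 74 and 51 of 445 T cells, with no more than 10 in 1 cell. The kept barcodes numbered 7523, 2422 and 9817, and the T cells without a Trdc UMI 665, 60 and 394. As a share of kept barcodes, T cells with a Trdc UMI were thus close across the libraries. T cells without one took a smaller share in both mutant libraries. The difference in Trdc is therefore one within the T cells and not one in the share of all kept barcodes. After every T cell was thinned to 1000 UMIs, 2.99% (1.86 to 4.53), 9.46% (3.89 to 18.5) and 9.21% (6.69 to 12.3) of them had a Trdc UMI, against at most 0.125% of basophils and neutrophil precursors. NK cells, whose gate is given below, had it in 3.90%, 2.70% and 1.83%, so the control T cells were at the NK cell level and the mutant T cells above it, with overlapping intervals in the Lztr1 knockout. In the other kept cells the ratio of Trdc was 0.71 and 1.44.

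T cells with a Trdc UMI rarely had Trac. Trac was found in 4 of 38 Trdc-positive T cells in the control, 3 of 14 in the Lztr1 knockout, with 9 of 51 in Rit1-M90I, against 61.4%, 68.3% and 60.2% of the T cells without Trdc. The rule counts Trac, so every T cell without it holds a Trbc1 or Trbc2 UMI, and these shares are a description. A gamma constant gene (Tcrg-C1, Tcrg-C2 or Tcrg-C4) was found in 73.7%, 71.4% and 74.5% of the Trdc-positive cells and in 33.1%, 23.3% and 30.7% of the others. CD8 mRNA was in 2, 1 and 1 of the Trdc-positive cells. The gamma delta list had 3 of 12 genes at 50 CPM or more in the control or a mutant, and besides Trdc these were Tcrg-C2, at 91.7, 64.0 and 89.4 CPM, and Tcrg-C4, at 52.8, 39.0 and 45.6 CPM. Neither was higher in a mutant. Il17a, the cytokine of one gamma delta subset, had no UMI in any library.

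Variable segments were read in few T cells, since the tags come from the 3′ end of the mRNA. A Trbv UMI was found in 43 of 703, 3 of 74 and 31 of 445 T cells, and a Trav UMI in 40, 9 and 36. The control showed 16 of 35 listed Trbv segments and Rit1-M90I 12, and no T cell had more than 1. The most counted Trbv segment, Trbv12-2, had 7 UMIs in the control, so no clone could be called. Trgv2, a gamma segment, had 120, 10 and 102 UMIs in 102, 10 and 74 T cells.

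Outside the rule, the genes that set these T cells furthest above the other kept cells were those of cytotoxic memory and NK-receptor-bearing T cells. Ccl5 led, at 7293 CPM in the control, 4983 in the Lztr1 knockout, with 5562 in Rit1-M90I, against 43.0 over the other kept cells. After it came Ms4a4b, at 1495, 1327 and 1344 CPM, and Il2rb, the receptor chain for IL-2 and IL-15, at 798, 590 and 714. Others of the 15 leading genes were Gimap4 and Gimap3, GTPases of lymphocyte survival, Xcl1, a chemokine for cross-presenting dendritic cells, the protease Ctsw, the kinase Txk, Thy1, Cd160 and Cd2. Another 4 were lectin receptors of the NK gene complex, Klre1, Klrk1 (NKG2D), Klra7 and Klrb1c (NK1.1). Klrk1 was at 669, 495 and 519 CPM and Klrb1c at 308, 248 and 301, against 12.6 and 4.21 in the other kept cells.

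Coreceptor mRNA was found in a minority of the T cells, and it was nearly all CD8. Cd8a or Cd8b1 alone was found in 142 of 703 control T cells, 20.2% (17.3 to 23.4), in 18 of 74 of the Lztr1 knockout, 24.3% (15.1 to 35.7), and in 81 of 445 of Rit1-M90I, 18.2% (14.7 to 22.1). Cd4 alone was found in 6, 2 and 3 T cells, and both in 3, 0 and 0. Counts of 0 of 74 and 0 of 445 allow, at 3 counts of the total, shares of cells with UMIs of both of up to 4.05% and 0.674%, which limits detection and not expression. Neither was found in 78.5%, 73.0% and 81.1%. Thinned to 1000 UMIs, the CD8 share was 12.1% (9.77 to 14.7), 13.5% (6.68 to 23.5) and 8.31% (5.92 to 11.3). Cd8a was in at most 0.25% of basophils and neutrophil precursors even before thinning. A cell without a CD8 UMI is not shown to lack CD8 at this depth, and the coreceptor intervals of the 3 libraries overlap.

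Cd8a was higher in T cells with a Cd8b1 UMI, although 162 of 213 Cd8a UMIs of the control were in cells without one, as were 22 of 44 in the Lztr1 knockout and 70 of 103 in Rit1-M90I. It was at 311 CPM (232 to 409) in control T cells with a Cd8b1 UMI and at 76.2 (64.9 to 88.9) in those without. In the Lztr1 knockout the levels were 357 and 73.9 CPM and in Rit1-M90I 225 and 44.1. Summed over all T cells, Cd8a was at 93.0 CPM in the control, 122 in the Lztr1 knockout, with 59.4 in Rit1-M90I. The ratio was 1.32 (0.93 to 1.83) for the Lztr1 knockout, where 1 cell held 10 of 44 UMIs, and 0.64 (0.50 to 0.81) for Rit1-M90I. Cd8b1 had ratios of 1.39 (0.81 to 2.26) and 0.88 (0.62 to 1.22).

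Several NK receptor genes were lower in T cells with CD8. Ncr1, the activating receptor NKp46, was lower in T cells with CD8 than in those with neither coreceptor, with ratios of 0.17 (0.08 to 0.31) in the control and 0.17 (0.08 to 0.33) in Rit1-M90I. The signalling adaptor Tyrobp had ratios of 0.58 (0.51 to 0.67) and 0.48 (0.40 to 0.58), and Klrb1c 0.57 (0.46 to 0.71) and 0.63 (0.48 to 0.81). Cx3cr1, a chemokine receptor of circulating effector cells, was higher with CD8, with ratios of 2.73 (1.72 to 4.31) and 3.64 (1.58 to 8.35). Ccl5 was close to even, at 1.15 (1.11 to 1.19) and 0.95 (0.91 to 1.0). In the Lztr1 knockout, with 18 CD8 cells, the ratios were 0.28 (0.07 to 0.79) for Ncr1, 0.52 (0.36 to 0.74) for Tyrobp, 0.61 (0.34 to 1.03) for Klrb1c, 0.87 (0.20 to 2.93) for Cx3cr1 and 0.83 (0.74 to 0.92) for Ccl5. Cx3cr1 and Ccl5 thus lay below 1 there, Cx3cr1 with an interval that includes 1. Car1, Car2 and Blvrb, erythroid genes high in the large cells, were among the 8 genes ranked highest in the CD8 group over the 3 libraries.

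NK cells share much of this programme and were set beside the T cells. They were taken as kept barcodes with at least 2 UMIs of Klrb1c and Ncr1 and at most 1 CD3 UMI, which gave 77 in the control, 37 in the Lztr1 knockout, with 109 in Rit1-M90I. Their median depth of 2470, 3106 and 2439 UMIs was near that of the T cells. Il2rb, Klre1, Txk and Xcl1 were near even in the control, with ratios of T cells over NK cells of 1.09 (0.95 to 1.27), 1.06 (0.88 to 1.30), 0.97 (0.79 to 1.19) and 0.97 (0.80 to 1.19). In Rit1-M90I Klre1 was even, at 1.06 (0.89 to 1.27), and Il2rb, Txk and Xcl1 were lower in the T cells, at 0.86 (0.76 to 0.98), 0.77 (0.65 to 0.91) and 0.79 (0.68 to 0.93). These ratios include the large T cells, which carried little Il2rb and Klre1. Without them Il2rb was at 974 CPM in control T cells and 855 in Rit1-M90I, against 730 and 826 in all NK cells. Klre1 was then at 547 and 515 CPM, against 426 and 407, so neither gene was lower in the T cells. Txk and Xcl1 were not compared in this way. Gzma, the granzyme typical of NK cells, was lower in the T cells in each library, with ratios of 0.28 (0.24 to 0.32), 0.37 (0.29 to 0.49) and 0.20 (0.18 to 0.23). Gzmb was higher in the T cells of the control, at 6.57 (3.31 to 15.3), and of Rit1-M90I, at 3.25 (2.13 to 5.2), while its ratio in the Lztr1 knockout was 1.59 (0.65 to 4.45).

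Ccl5 and Ikzf2 were also higher in T cells than in NK cells in each library. The ratio of Ccl5 was 2.40, 3.09 and 2.47 in the control, the Lztr1 knockout and Rit1-M90I, and that of Ikzf2, which encodes the transcription factor Helios, 2.77, 2.06 and 3.13. Trac was at 5.0 to 18.1 CPM in NK cells, but Trbc1 was at 290 to 325 CPM and Trbc2 at 214 to 390 CPM there. Both gates set the CD3 level, so its difference is no finding, but the beta constant genes were well above 0 in NK cells.

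**Figure D2:**
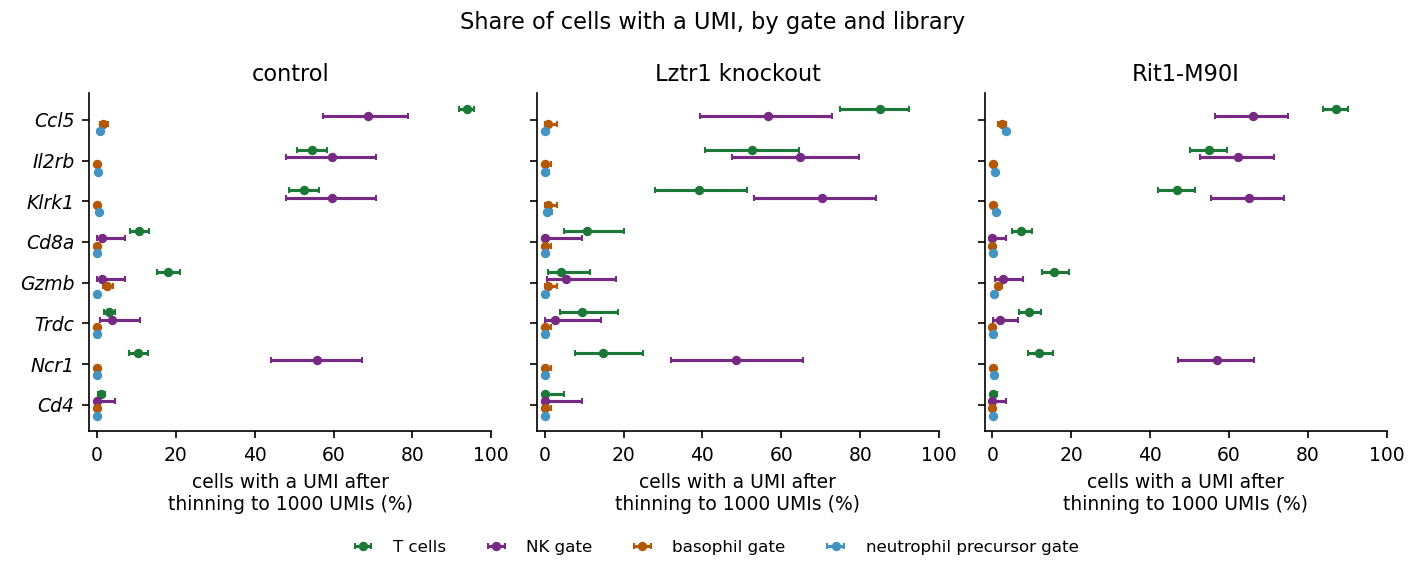
Share of cells with a UMI of 8 genes (y axis) after thinning each cell to 1000 UMIs (x axis, %), for T cells, the NK gate, the basophil gate and the neutrophil precursor gate in each library, with exact 95% intervals for counting error. Ccl5, Il2rb and Klrk1 are frequent in T and NK cells and near 0 in the other gates. Ncr1 is more frequent in NK cells, but their gate asks for Klrb1c and Ncr1 UMIs, so that difference is no finding. Gzmb is found in 17.9%, 4.05% and 15.7% of T cells in the 3 libraries.

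A part of the T cells carried Ncr1 as well as CD3. An Ncr1 UMI was found in 141 of 703 T cells of the control, 16 of 74 of the Lztr1 knockout and 115 of 445 of Rit1-M90I. The rule fixed that they carry CD3 and receptor constant UMIs, so Cd3d at 624, 704 and 593 CPM and a Trac UMI in 56.0%, 50% and 49.6% of them are a description. Tyrobp was at 1033, 1288 and 1140 CPM in them, against 678, 475 and 512 in the T cells without Ncr1. CD8 was found in 5.67%, 6.25% and 4.35% of them, against 24.4%, 29.3% and 23%. The share with Ncr1 after thinning was 10.4% (8.23 to 12.9), 14.9% (7.66 to 25.0) and 11.9% (9.05 to 15.3), so the libraries overlapped.

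The genes of other T cell states divided sharply between measured and nearly absent. Of 34 effector and cytotoxic genes 26 reached 50 CPM in a library, led by Ccl5, Nkg7, S100a6 and Lgals1, and so did 20 of 24 NK receptor genes. Among 19 naive and central memory genes 12 did, with Bcl2 at 562, 409 and 509 CPM. The lymph node homing receptor Ccr7 had 20, 1 and 11 UMIs. Of 13 regulatory T cell genes only Ikzf2 and Tnfrsf18 reached 50 CPM, and Foxp3, the regulator of that lineage, had 3, 0 and 1 UMIs. Of 12 checkpoint genes only Ctla2a and Tox did, and Pdcd1 (PD-1) had 0, 0 and 6 UMIs. Zbtb16, the regulator PLZF of invariant NKT cells, had 9, 2 and 11 UMIs, and after thinning it was in at most 2.70% of T cells, against 0.154% to 2% in basophils and neutrophil precursors.

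**Figure D3:**
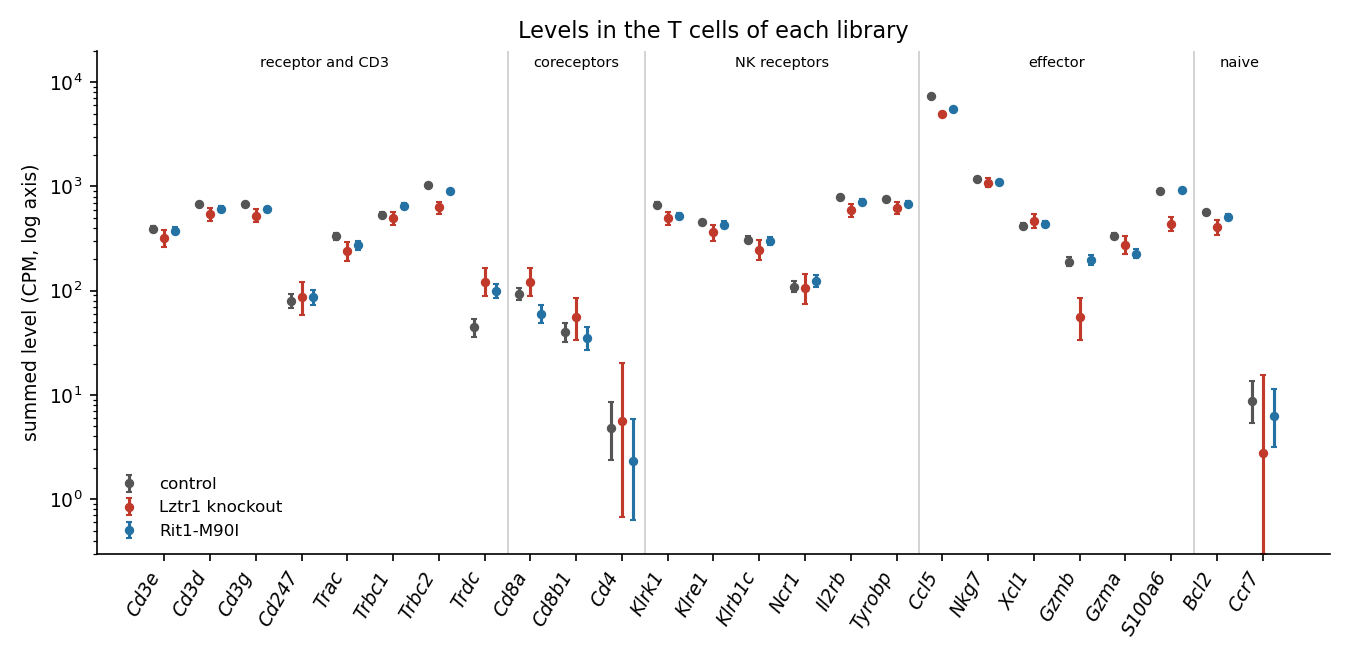
Summed level (y axis, CPM on a log axis) of genes of the receptor, the coreceptors, NK receptors, effector and naive groups in the T cells of each library, with exact Poisson 95% intervals for counting error. Most genes sit at like levels in the 3 libraries, Gzmb and S100a6 are lower in the Lztr1 knockout (red), Trdc is lower in the control (grey), and Cd4 and Ccr7 are under 10 CPM, with the lower end of one Ccr7 interval off the axis.

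The Lztr1 knockout and control T cells were compared over 3275 genes with at least 50 CPM in 1 of the 2 libraries. At least 2-fold on the log2(CPM + 10) scale, 25 genes were higher, which is 0.763% of those tested, and 15 were lower, which is 0.458%. The median log2 ratio of all genes was 0.01. Without the T cells over 8000 UMIs 17 of 3117 genes were higher (0.545%) and 37 lower (1.19%). The genes on either side were of different kinds. Of the 25 higher genes 22 had a lower level in T cells than in the other kept cells, whereas 13 of the 15 lower genes were at or above the level of the other kept cells.

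Gzmb, a granzyme that starts death of target cells, had the lowest upper bound of the ratio among the genes at T cell level. It was at 190 CPM (173 to 209) in the control, 55.6 (34.0 to 85.9) in the Lztr1 knockout, with 197 (177 to 219) in Rit1-M90I, so the knockout interval lay below both others. The knockout ratio was 0.29 (0.18 to 0.46), and the log2 ratio was -1.61, or -1.51 without the large T cells. In the other kept cells the knockout ratio of Gzmb was 0.61 (0.48 to 0.77), at a level of 5.03 CPM over the 3 libraries against 182 in the T cells. The other kept cells include NK cells and cells just outside the rule, and which of them carried this ratio was not tested. Gzmb UMIs were found in 248 of 703 control T cells, in 13 of 74 of the knockout and in 170 of 445 of Rit1-M90I, with at most 19 in a cell. After thinning the shares were 17.9% (15.2 to 21.0), 4.05% (0.844 to 11.4) and 15.7% (12.5 to 19.5). The thinned shares in basophils were 2.62%, 0.905% and 1.44%. The knockout value is close to the level of 1 UMI in 3 cells, so the thinned shares are read only beside the CPM.

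Gzmb lies on chromosome 14 (56258838 to 56262260, minus strand, GENCODE M21 on GRCm38). The 250 bases before its RefSeq start are shown because Gzmb was first among the lower genes of the knockout by the naming rule (GRCm38.p6, chr14:56262335-56262584, minus strand, 5′ to 3′). Capitals mark TGTGGT, the core word of RUNX factors.

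Gzmb: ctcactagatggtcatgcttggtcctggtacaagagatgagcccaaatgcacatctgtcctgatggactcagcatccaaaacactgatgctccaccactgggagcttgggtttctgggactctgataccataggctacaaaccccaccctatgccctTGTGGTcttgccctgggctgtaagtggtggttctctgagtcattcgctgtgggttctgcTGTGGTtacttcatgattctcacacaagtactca

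TGTGGT was searched on both strands (ACCACA on the other) and was found 2 times, both on the gene's strand. It was found in 14.0% of 32851 windows of the same length before RefSeq starts. The T-box word GGTGTGA was not in this window on either strand, and 3.33% of all windows held it. A match is a description of the letters, and no binding was measured. Runx3, the RUNX factor of cytotoxic T cells, was at 206 CPM in the control, 184 in the Lztr1 knockout, with 210 in Rit1-M90I. Tbx21, the T-box factor T-bet, was at 75.5 CPM (64.7 to 87.7), 41.7 (23.4 to 68.8) and 64.6 (53.2 to 77.8), and Eomes at 119, 122 and 108.

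S100a6, Epsti1, Prkch, Klra9 and Klra3 were among the other lower genes. S100a6, a calcium-binding protein of memory and effector cells, was at 896 CPM (858 to 936) in the control, 440 (374 to 514) in the knockout and 922 (878 to 969) in Rit1-M90I, a log2 ratio of -1.01 that became -0.90 without the large cells. Epsti1 was at 299, 120 and 219 CPM, with a knockout ratio of 0.40 (0.29 to 0.54). Prkch, a protein kinase C of T cells, was at 93.0, 22.3 and 73.3 CPM, with a ratio of 0.24 (0.10 to 0.48) that rests on 8 knockout UMIs. The inhibitory lectin genes Klra9 and Klra3 had ratios of 0.25 (0.08 to 0.60) and 0.38 (0.19 to 0.69). They are near copies of other Klra genes, and Klra9 had UMIs in 3 knockout cells. Dnajc15, Lfng, a modifier of Notch receptors, and Trbc2 had ratios of 0.50 (0.34 to 0.72), 0.48 (0.30 to 0.74) and 0.60 (0.52 to 0.69). Without the large cells Trbc2 was at 881 CPM in the knockout against 1235 in the control, a smaller difference. In the other kept cells the ratio was 0.83 for S100a6, 0.90 for Epsti1 and 0.77 for Prkch.

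Most higher genes lost their 2-fold difference without the large T cells. Without the T cells over 8000 UMIs, 6 of the 25 higher genes were still 2-fold higher, and 11 of the 15 lower genes still 2-fold lower. Mcpt8 (basophil), Cpa3 (mast cell) and Gata2 (progenitor) had log2 ratios of 1.74, 1.82 and 1.08 over every T cell, and 0.28, -0.54 and 0.14 without the large ones. Ifitm1 had 37 of its 41 knockout UMIs in 1 cell of 17984 UMIs. The chemokine gene Ccl4 was at 74.2 CPM in the control and 189 in the knockout, but 50 of its 68 knockout UMIs were in 1 cell, and without the cell with most Ccl4 in each library the levels were 65.1 and 50.6. Without the highest cell of each library for each gene, 7 of the 25 higher and 15 of the 15 lower genes kept a 2-fold ratio. For the lower genes this step takes UMIs from a knockout count that is already low. It could thus hardly undo their ratio, and nothing is read from that count. AA465934 had a ratio of 22.3 (8.71 to 67.5) in T cells and of 34.2 in the other kept cells. Trdc had a log2 ratio of 1.28, and 1.75 without the large cells. Among genes at T cell level Tmem131l, Actn4, Tpr, a nuclear pore protein, Zfr, Gltp and Mier1 were higher by less than 2-fold, with ratios from 1.34 (Tpr, 1.13 to 1.59) to 1.73 (Tmem131l, 1.17 to 2.51).

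Over every T cell the NK receptor list had the lowest median of the lists, but the order depended on the cells and their weight. Without the large cells the medians of the cell cycle list, -0.30, the effector list, -0.25, and the regulatory T cell list, -0.19, lay below its -0.17. With every cell weighted equally its median was -0.28, and the gamma delta list was lowest at -0.47. The 26 measured effector and cytotoxic genes had a median log2 ratio of -0.30, with 1 of them 2-fold higher (Ccl4) and 2 lower (Gzmb and S100a6), where 0.763% and 0.458% of all genes tested were. Ccl5 had a log2 ratio of -0.55, or -0.28 without the large cells, and its plain ratio was 0.68 (0.65 to 0.72) in the T cells and 0.39 (0.36 to 0.43) in the other kept cells. Id2 had a log2 ratio of -0.71 and S100a4 -0.86, and Serpinb9, an inhibitor of granzyme B, 0.37. The 20 NK receptor genes had a median of -0.41 with 2 of them 2-fold lower (Klra9 and Klra3), against 0.458% of all genes tested. Without the large cells the median was -0.17 where all genes tested had -0.01, and 2 were 2-fold lower, against 1.19% of all. Klrk1 was at a log2 ratio of -0.43, or -0.17 without them, and Ncr1 at -0.04, or 0.34.

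Receptor and signalling genes had medians below 0 that came closer to 0 without the large cells. The 7 receptor and CD3 genes had a median of -0.33, or -0.11 without the large cells, and the 12 proximal signalling genes -0.23, or -0.06. Lck, the kinase that starts the receptor signal, was at 327 CPM in the control and 253 in the knockout, and its adaptor Lat at 101 and 131. Interferon-stimulated genes had a median of -0.11 over 18 genes, with Psmb9 at a log2 ratio of -0.62. Ifitm1, above, was the 1 that was 2-fold higher, where 0.763% of all genes tested were. Without the large cells 0 of 18 were, so nothing is read from that count. MHC class I had -0.18 over 12 genes, with H2-K1 at -0.24 and B2m at 0.01. Immediate early genes had -0.17 over 12 genes, which turned to 0.02 over 13 without the large cells, and Jund was at -0.68. The 17 cell cycle genes had 0.36, and -0.30 over the 10 that were measured without the large cells. Mki67, a marker of dividing cells, turned from 0.68 to -0.30.

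**Figure D4:**
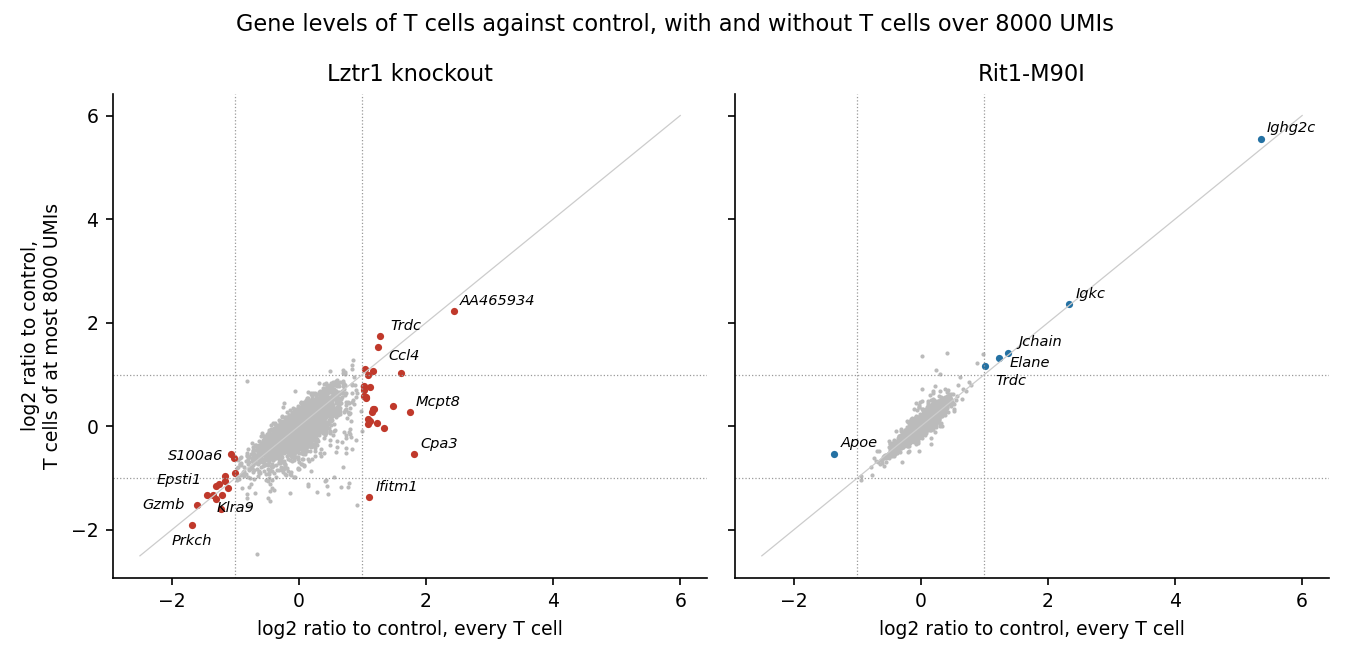
Log2 ratio of each tested gene to the control over every T cell (x axis) and over T cells of at most 8000 UMIs (y axis), for the Lztr1 knockout and Rit1-M90I; coloured points are at least 2-fold over every T cell and dotted lines mark 2-fold. In the Lztr1 knockout the lower genes lie along the diagonal while Mcpt8, Cpa3 and Ifitm1 drop toward or below 0 on the y axis.

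Rit1-M90I T cells differed from the control in few genes. Of 3043 genes tested 5 were at least 2-fold higher, which is 0.164%, and 1 was lower, which is 0.0329%. The median log2 ratio was -0.04. Without the large T cells 9 of 2986 genes were higher (0.301%) and 1 lower (0.0335%). The control library is shared with the comparison above. The higher genes were Trdc, described above, Jchain, Igkc and Ighg2c of plasma cells, and Elane, whose level the rule limits. Of 935 Ighg2c UMIs, 897 were in 1 T cell of 5977 UMIs, which also held 1028 of 1866 Igkc UMIs and 121 of 301 Jchain UMIs. Without that cell the levels were 22 CPM for Ighg2c, 485 for Igkc and 104 for Jchain, against 3.49, 205 and 60.7 in every control T cell. Igkc UMIs were found in 47.9% of control T cells, 62.2% of those of the Lztr1 knockout and 78.7% of those of Rit1-M90I, so they were widespread in cells that should lack the gene. The lower gene was Apoe, with a log2 ratio of -1.36, or -0.53 without the large cells.

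Among genes at T cell level, those lower in Rit1-M90I were of mixed kinds, some of them of cytotoxic and innate-like T cells, and lower by less than 2-fold. Gzma was at 335 CPM (312 to 360) in the control and 227 (205 to 250) in Rit1-M90I, a ratio of 0.68 (0.60 to 0.76). The surface protein Cd7 had a ratio of 0.67 (0.60 to 0.76), the IL-18 receptor chain Il18rap 0.66 (0.55 to 0.78), Klra7 0.69 (0.61 to 0.78) and Gimap8 0.69 (0.58 to 0.81). Ccl5 had 0.76 (0.74 to 0.78), and its ratio in the other kept cells was 0.68. Txnip, a thioredoxin inhibitor, had 0.69 (0.60 to 0.80), and 0.87 in the other kept cells. Txnip and Ccl5 thus had ratios below 1 outside the T cells as well, while Gzma, Il18rap, Cd7 and Gimap8 had 0.96, 1.01, 1.17 and 1.01 there. The other kept cells include NK cells, with Ccl5 at 2254 CPM in Rit1-M90I, and cells just outside the rule. Which of them carried the Ccl5 ratio was not tested.

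Higher genes of T cell level differed little. Trbc1 had a ratio of 1.21 (1.11 to 1.31), with 1.39 in the other kept cells, and Psme1, a proteasome activator subunit, 1.19 (1.09 to 1.30). The actin-binding Pfn1 had 1.10 (1.05 to 1.15), and Dync1i2, Nsa2, Ddx21, Chmp2a and Smap2 had 1.21 to 1.41.

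The lists showed small shifts in Rit1-M90I. NK receptor genes had a median log2 ratio of -0.24 over 19 genes, with Klra9 at -0.94, Klra3 at -0.77 and Ncr1 at 0.18. None of the 19 was 2-fold lower, where 0.0329% of all genes tested were, so nothing is read from that count of 0. Without the large cells 1 of 19 was, against 0.0335% of all. Effector and cytotoxic genes had -0.16 over 26, with Zeb2 at -0.68, Gzmb at 0.05 and S100a6 at 0.04. Gzmb and S100a6 were at control level here. MHC class I genes lay below 0 in 12 of 12, between -0.24 and -0.03, with a median of -0.18, where all genes tested had a median of -0.04. Cytokine receptor and homing genes had -0.12 over 14, with Itga1, the integrin of tissue-resident T cells, at -0.94. Proximal signalling genes had -0.03 over 13, and interferon-stimulated genes -0.02 over 19, both near the median of all genes tested. Itga1 was also at -0.97 in the Lztr1 knockout, against the same control.

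**Figure D5:**
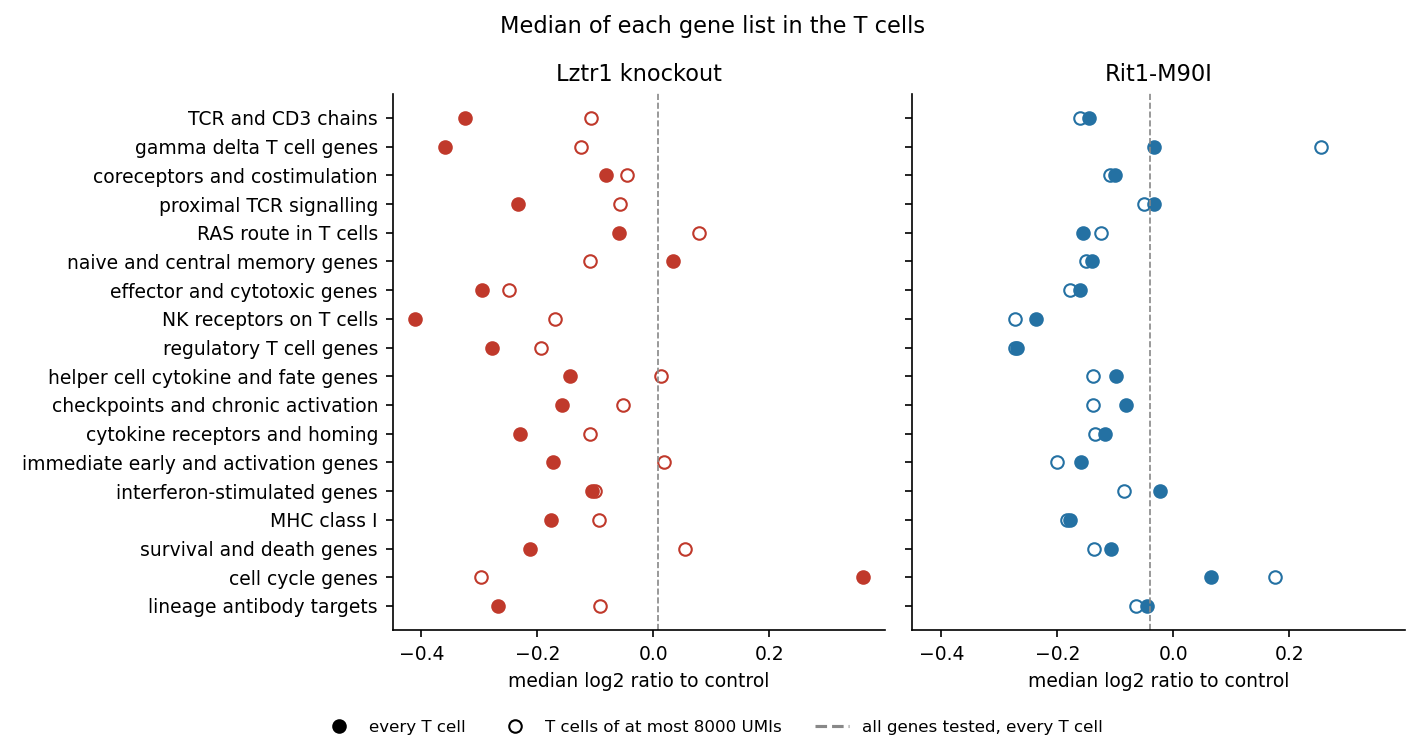
Median log2 ratio to the control (x axis) of each gene list (y axis) in the T cells, for every T cell (filled) and for T cells of at most 8000 UMIs (open), with the median of all tested genes as a dashed line. The NK receptor list is at -0.41 in the Lztr1 knockout and moves to -0.17 without the large cells, the cell cycle list moves from 0.36 to -0.30, and the Rit1-M90I medians move less for most lists.

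Lztr1 and Rit1 mRNA could be counted in few T cells. Lztr1 was at 17.9 CPM (12.8 to 24.3) in the control from 41 UMIs, 5.56 (0.674 to 20.1) in the library labelled Lztr1 knockout from 2 UMIs and 13.8 (8.87 to 20.6) in Rit1-M90I from 24. The knockout ratio was 0.31 (0.04 to 1.2) in T cells, whose interval includes 1, and 0.36 (0.31 to 0.43) in the other kept cells. Which exons were deleted is not stated, and tags from the 3′ end may come from exons that remain. Rit1 was at 16.2, 19.5 and 20.2 CPM, with ratios of 1.21 (0.45 to 2.74) and 1.25 (0.76 to 2.04). Neither gene reached the level needed to be tested.

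No tested gene of the RAS route was 2-fold different in either mutant. Of all genes tested 0.763% were higher and 0.458% lower in the Lztr1 knockout and 0.164% and 0.0329% in Rit1-M90I, so nothing is read from that count of 0. In the Lztr1 knockout 19 of 30 were tested, with a median log2 ratio of -0.06 that was 0.08 without the large cells, and Nras was the lowest at -0.64 (ratio 0.59, 0.32 to 1.0). In Rit1-M90I 17 were tested, with a median of -0.15, and Spry2, an inhibitor that the route induces, was lowest at -0.64 (ratio 0.58, 0.43 to 0.79). Dusp6, a phosphatase induced by the route, was at 43.7, 50.1 and 36.9 CPM in the control, the Lztr1 knockout and Rit1-M90I. Rasgrp1, which loads RAS after receptor signalling, was at 103, 103 and 87.7 CPM.

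Clustering the T cells alone gave 9 groups, which are numbered by size and carry no cell type name. Each of the 9 held cells of all 3 libraries. Cluster 5, led by Gzma, Cx3cr1 and S1pr5, was 95 of 703 control T cells, 13.5% (11.1 to 16.3), 7 of 74 in the Lztr1 knockout, 9.46% (3.89 to 18.5), and 27 of 445 in Rit1-M90I, 6.07% (4.04 to 8.71). CD8 was in 44.2% of its cells, the highest share of any cluster, and its median cell had 1799 UMIs, the lowest. Cluster 6, led by Cxcr6, Ccr9 and Il7r, had Ncr1 in 1.02% and Trdc in 17.3% of its cells, and took 6.40%, 10.8% and 10.1% of the T cells. Clusters 1 and 2, led by Gzmm with S100a6 and by Trbc1 with Klrb1a, had Ncr1 in 33.6% and 35.3%. Cluster 7, led by Apoe and Irf8, held 50 of the T cells over 8000 UMIs and 57 that scrublet marked. Cluster 9, led by Car1 and Car2, held 14 and 7. The genes that lead a cluster were used to form it and are no finding, and cluster sizes can move with those genes.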

How the data were processed

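Droplet libraries (10x Genomics 3′ chemistry) of 3 genotypes, 1 each, were deposited as matrices of UMI counts per gene and barcode. Per the submitters' processing notes the tools named were Cell Ranger 6.1.1 and Seurat 4.1.0, with no role given. The deposited counts are whole numbers and were not normalized. The barcodes numbered 8476 in the control, 3014 in the Lztr1 knockout, with 11573 in Rit1-M90I, with 67541728, 30398349 and 88560148 UMIs, and the cell filter removed 11.2%, 19.6% and 15.2% of them. T cell UMIs came to 2290207, 359412 and 1733341, which sets the precision.

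UMIs were summed over the T cells of each library and divided by their total (CPM). Genes with at least 50 CPM in 1 of 2 libraries were compared as log2 of CPM plus 10, and plain ratios have exact conditional intervals. Shares have exact Clopper-Pearson intervals and share ratios Katz intervals, and CPM have exact Poisson intervals. The calculations used Python 3.11.15, scipy 1.17.1, numpy 2.4.6, pandas 2.3.3 and scanpy 1.11.5, and were checked on simulated data. Thinning drew 1000 UMIs from each cell, and no T cell was shallower. Scrublet, run per library, marked 3.47%, 3.47% and 4.75% of kept barcodes, and no call removed a cell except as an alternative. T cells were clustered at a Leiden resolution of 0.8.

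The members, the gene lists and the markers were chosen with earlier results of these data known. Genes were named as follows: the receptor, CD3, coreceptor, Lztr1 and Rit1 genes, per mutant the 8 genes with the highest lower bound and the 8 with the lowest upper bound of the ratio among genes with at least 100 CPM that were at or above the other kept cells, the 15 leading genes of the T cells, and members of each list with the highest, the lowest and the most abundant values. Genes beyond these, such as Runx3, Tbx21, Prkch, Mcpt8 and AA465934, were named after their values were seen. Some genes that the rule names are not reported here. Leaving out T cells over 8000 UMIs and the clustering were also chosen after seeing the data.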

Additional observations from a re-analysis of the deposited data

How the results depend on the processing

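Directions held for the shares under the alternatives run. Of the genes named by the rule with a 2-fold difference, Gzmb, Epsti1, S100a6 and Trdc kept their direction, and Ccl4 turned from higher to lower in the Lztr1 knockout without the cell with most of it in each library, at 50.6 CPM against 65.1. Cpa3 and Ifitm1, named after their values were seen, turned from higher to lower in the Lztr1 knockout without the T cells over 8000 UMIs, as did the cell cycle median. Of the list medians 57 moved and 267 did not. Of the T cell shares and their ratios, 48 values moved by less than their counting interval and 7 by more. With a minimum of 2000 UMIs the Rit1-M90I ratio was 0.587 and the control share 8.29%. With at least 3 CD3 UMIs the control share was 8.57%, and with no exclusion of other lineages the Rit1-M90I share was 4.99%. Gated after thinning to 1000 UMIs, the shares were 5.17% in the control, 1.36% in the Lztr1 knockout, with 2.44% in Rit1-M90I.

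The CD8 share depends on depth and on the UMIs asked for. With at least 2 UMIs it was 9.39% in the control and 7.87% in Rit1-M90I, and neither coreceptor was found in 90.3% and 91.9%. After thinning, CD8 was found in 12.1%, 13.5% and 8.31% and neither in 86.9%, 86.5% and 91.5% of T cells in the control, the Lztr1 knockout and Rit1-M90I.

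Counts of 2-fold genes moved with the pseudocount and the filter. For the Lztr1 knockout, 42 genes were higher and 37 lower with a pseudocount of 1 CPM, 2 and 2 with 50 CPM, and 59 and 105 with no filter on low genes. With the mean of each cell's CPM 29 genes were lower, and without T cells over 8000 UMIs 37 were lower. The share of called genes that were higher was 62.5% as reported, 43.1% with the mean of each cell's CPM, 36.0% with no filter and 31.5% without the large T cells. For Rit1-M90I, 3 genes were higher with a pseudocount of 50 CPM, 8 without scrublet doublets, 12 with no filter and 9 without the large T cells. Its lower genes numbered 3 with a pseudocount of 1 CPM, 0 with 50 CPM, 3 with the mean of each cell's CPM and 2 without scrublet doublets. The cause of each shift was not tested. The log2 ratio of Gzmb in T cells, Lztr1 knockout against control, ranged from -1.75 to -1.18 over the alternatives. The log2 ratio of Trdc in T cells, Lztr1 knockout against control, ranged from 0.87 to 1.75. The 74 T cells of the Lztr1 knockout limit every value of that library. No paired analysis was possible because each genotype has 1 library, and for the same reason no replicate could be left out.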
